A study of Homo sapiens with 8 samples.

Results

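The genes described here are 42 genes of the lysosome that were chosen by name: proteases, glycosidases, sulfatases, lipid hydrolases with their activator proteins, membrane proteins, and subunits of the V-ATPase, the proton pump that acidifies the lysosome. Of the 42 genes, 41 had a row with a single gene symbol among the 22109 genes measured, and GLB1, whose row carries a second symbol, was not analysed here. They were listed by name, but with earlier results of these data known. The 41 genes comprise 13 proteases, 9 glycosidases, 4 sulfatases, 5 lipid hydrolases or activators, 6 membrane proteins and 4 V-ATPase subunits.

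Lysosomes are acidic organelles in which soluble hydrolases break down proteins, glycans and lipids that arrive by endocytosis and autophagy, and membrane transporters carry the products back to the cytosol. Most soluble hydrolases are made as precursors, tagged with mannose 6-phosphate in the Golgi and activated by the low pH that the V-ATPase maintains. Many lysosomal genes are targets of TFEB and its relatives TFE3 and MITF, transcription factors that bind a palindromic promoter sequence called the CLEAR element and that are held in the cytosol when the mTORC1 kinase is active on the lysosomal surface.

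The cells were MDA-MB-231, a line established from the pleural effusion of a patient with triple-negative breast cancer, and all groups shared the same growth medium, cell line and 24 h schedule. The titles and treatment protocol name 3 low arrays with an ethanolic wild yam root extract at 15 µg/mL, 2 high arrays with the same extract at 30 µg/mL and 3 control arrays, which are labelled as untreated with no vehicle named. The source and treatment fields of the same samples name other agents: the low arrays carry 128 µg/mL of an extract of Boswellia serrata, and the high arrays 46 µg/mL of 3-O-acetyl-β-boswellic acid, a triterpenoid of that resin. Both descriptions divide the samples in the same way, so "low", "high" and "control" are used below as group names, and nothing in the labels settles which agent was given. The terms "low-dose" and "high-dose" name these groups only and do not state that they received the same agent at different doses. Nothing in them says that replicates came from separate cultures either, so p-values measure only the spread between these samples, which may be technical. All values are deposited log2 expression values, and a difference of 1 is a doubling.

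The line's mesenchymal markers VIM and MSN had group means of 8.86 to 8.92 and 10.01 to 10.31, whereas the hormone receptor genes ESR1 and PGR had group means of 1.69 to 2.08 and 1.22 to 1.49. Not all markers followed this division. The mesenchymal marker SPARC had group means of 1.88 to 2.22, and the epithelial markers KRT19 and EPCAM had 7.42 to 7.77 and 4.57 to 5.16. Among 10 macrophage and leukocyte markers, the group means lay between 1.01 and 2.87. The 75th percentile over all genes was 4.94, 4.90 and 4.54 on the low arrays and 4.80 and 4.54 on the high arrays, against 4.92, 4.92 and 4.73 on the control arrays. The third control, the third low array and the second high array therefore stood below the others of their groups. The third control was the lowest control for 31 of the 41 lysosomal genes (75.6%), against 46.9% of all genes and 58.6% of genes at or above the median level. Its median difference from the mean of the other controls was -0.41 for the lysosomal genes, against -0.06 for all genes and -0.18 for the brighter ones. The third low array was the lowest of its group for 35 of the 41 (85.4%), against 60.1% of all and 84.4% of brighter genes, and the second high array for 34 (82.9%), against 64.2% and 79.8%. On these 2 arrays the members' median differences of -0.33 and -0.24 were close to the -0.33 and -0.25 of the brighter genes. Without the third control 33 of the 41 low-dose changes were smaller or more negative, and values without it are given for many genes below.

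**Figure D1:**
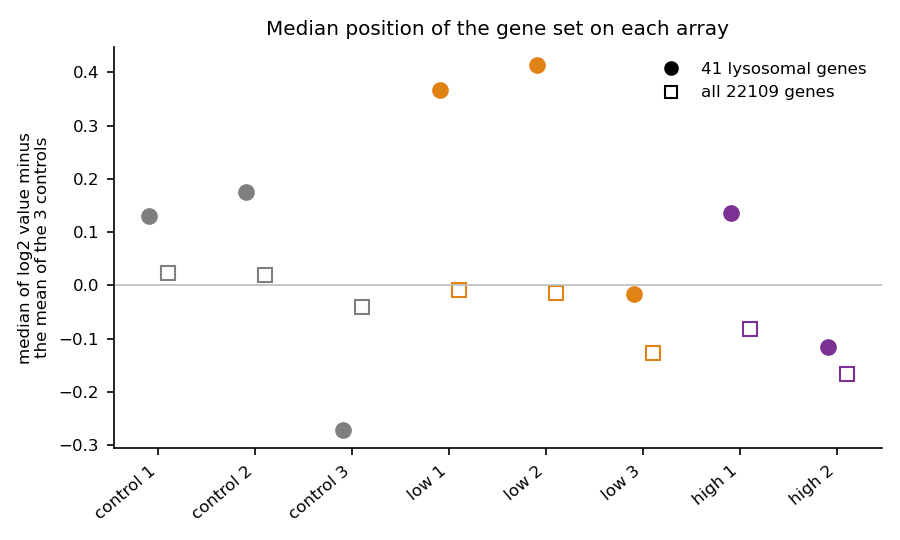
Median over the 41 lysosomal genes (filled circles) and over all 22109 genes (open squares) of the log2 value minus the mean of the 3 controls, for each array on the horizontal axis. The lysosomal medians were 0.37, 0.41 and -0.02 on the low arrays and 0.14 and -0.12 on the high arrays, against 0.13, 0.18 and -0.27 on the controls.

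With all 8 arrays fitted, the sialidase gene NEU1 and the cathepsin L gene CTSL rose more than 2-fold in low-dose cells. The cathepsin C gene CTSC fell by about the same factor, and no other lysosomal gene of the 41 passed the test. That is 2 genes called higher (4.88% of 41, against 1.19% of all genes) and 1 called lower (2.44%, against 1.81% of all genes), where a gene is called at an adjusted p under 0.05 in limma, with the Benjamini-Hochberg adjustment over all 22109 genes. Among genes at or above the median level the called shares were 2.30% higher and 3.47% lower. Most other members were slightly higher: 34 of 41 changes were positive (82.9%, against 42.6% of all genes), and their median was 0.28, against -0.04 for all genes. The low arrays all lay above the controls for 11 members and below them for 1, against 7.03% and 13.0% of all genes. At an unadjusted p under 0.05 there were 8 members higher and 1 lower, against 5.38% and 8.77% of all genes. This broad shift was smaller without the third control, when the median was 0.14 with 31 positive changes, and it was 0.26 when the third control, the third low array and the second high array were all left out. In bulk RNA such as this, fewer cells expressing a gene and less RNA per cell cannot be told apart.

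In high-dose cells CTSC again fell, and no member was called higher. The count of called members was 0 higher and 1 lower, against 0.425% and 0.389% of all genes. Among genes at or above the median level the called shares were 0.814% and 0.733%. The changes split into 22 positive (53.7%, against 32.6% of all genes) and 19 negative (46.3%, against 67.4%), with a median of 0.04 against -0.12 for all genes. Without the third control there were 14 positive and 27 negative changes, with a median of -0.15. The high arrays lay above the controls for 9 members and below them for 7, against 7.07% and 22.9% of all genes. At an unadjusted p under 0.05 there were 5 members higher and 7 lower, against 3.03% and 11.4% of all genes.

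Between the treated groups no member was called in the direct comparison of high against low, in which 0.00452% of all genes were called higher and 0 lower. At an unadjusted p under 0.05 there were 0 members higher and 9 lower, against 2.56% and 6.10% of all genes. The high arrays lay above the low arrays for 1 member and below them for 14, against 8.77% and 16.7% of all genes. Of the 41 differences, 37 were negative (90.2%, against 61.6% of all genes and 68.0% of genes at or above the median level). The median of the 41 was -0.30, against -0.07 for all genes and -0.14 for the brighter ones.

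**Figure D2:**
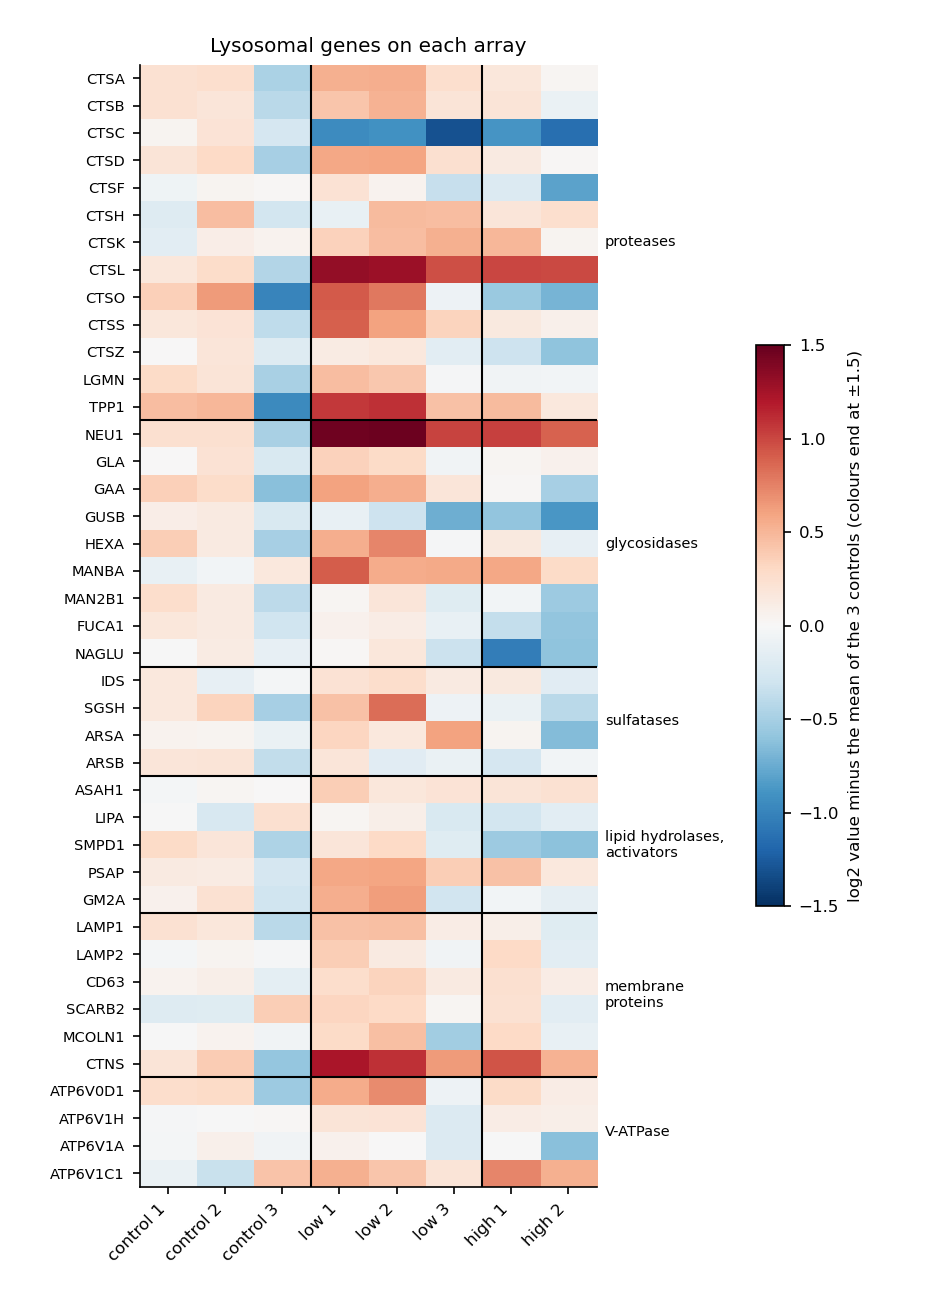
Log2 value of each of the 41 lysosomal genes (vertical axis, by class) on each of the 8 arrays (horizontal axis), as the difference from the mean of the 3 controls (colour scale). NEU1 and CTSL stood above the control mean, and CTSC below it, on all 3 low and both high arrays, and the third control was below its group's mean for most genes.

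The proteases held both directions. CTSL, which encodes a cysteine endopeptidase of the lysosome, read 7.04, 7.00 and 6.69 on the low arrays, against 5.89, 6.001 and 5.28 on the controls. All 3 low arrays lay above all 3 controls. CTSL averaged 6.91 ± 0.19 in low-dose and 5.72 ± 0.39 in control cells (SD, n = 3 each), a rise of 1.19 ± 0.20 (SE) or 2.28-fold, with a limma adjusted p of 0.00979. Leaving out the second low array ended this call (1.14, adjusted p = 0.0539), and the remaining 18 of 19 alternatives kept it. Without the third control the rise was 0.97 (adjusted p = 0.00935), just under a doubling. The high arrays read 6.73 and 6.71, also above every control, a difference of 1.00 ± 0.23 (1.99-fold) with an adjusted p of 0.0783. That difference passed when array medians were subtracted (1.09, adjusted p = 0.0233) and when the third control was left out (0.77, adjusted p = 0.0391). The high and low groups differed by -0.19 (95% interval -0.69 to 0.30).

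CTSC encodes dipeptidyl peptidase I, the exopeptidase that activates the granule serine proteases of leukocytes by trimming their propeptides. It read 6.34, 6.38 and 5.97 on the low arrays, against 7.33, 7.49 and 7.03 on the controls. The groups did not overlap, with every low array below every control. CTSC averaged 6.23 ± 0.22 in low-dose and 7.28 ± 0.23 in control cells (SD, n = 3 each), so it fell by 1.05 ± 0.18 (2.07-fold lower, limma adjusted p = 0.00994), and this call stood under each of 19 alternatives. The high arrays read 6.39 and 6.15, and the fall of 1.01 ± 0.20 in high-dose cells (2.01-fold lower) was called at an adjusted p of 0.0490. This call was lost under 8 of 18 alternatives, among them leaving out the first or second control, the first or second low array, or either high array, with adjusted p up to 0.341, while the fall itself stayed between 0.79 and 1.13. The high and low groups differed by 0.04 (95% interval -0.40 to 0.49).

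The remaining 11 proteases were not called. For 3 of them the low arrays lay wholly above the controls: the carboxypeptidase CTSA, which also stabilises NEU1 in a complex (0.44 ± 0.21, adjusted p = 0.369), the collagen-degrading CTSK (0.45 ± 0.17, adjusted p = 0.234) and CTSS, a protease best known from antigen-presenting cells (0.61 ± 0.20, adjusted p = 0.170). The tripeptidyl peptidase TPP1 differed by 0.87 ± 0.35 (adjusted p = 0.273), with 6.88, 6.92 and 6.26 on the low arrays against 6.28, 6.32 and 4.87 on the controls, so that the third low array overlapped the controls. This difference was 0.39 without the third control (adjusted p = 0.464). CTSD, the main aspartic protease of the lysosome, differed by 0.47 ± 0.22, CTSB by 0.38 ± 0.20, the asparaginyl endopeptidase LGMN by 0.28, and the aminopeptidase CTSH by 0.27. CTSZ and CTSF differed by 0.04 and -0.02. Leaving out the third control gave low-dose differences of 0.21 for CTSA, 0.42 for CTSS, 0.22 for CTSD and 0.17 for CTSB. The same omission gave 0.04 for LGMN, 0.14 for CTSH and -0.05 for CTSZ. CTSO was the most variable, at 4.87, 4.73 and 3.87 on the low arrays against 4.30, 4.58 and 2.95 on the controls (0.54 ± 0.38, and 0.05 without the third control). On the high arrays CTSO read 3.38 and 3.24, a difference of -0.63 ± 0.43 from control (adjusted p = 0.533) that was called without the third control (-1.13, adjusted p = 0.0499). It was also called with the replicate number as a block (-1.03, adjusted p = 0.0248), although replicate numbers were not shown to pair the high arrays. These arrays lay 1.18 ± 0.43 below the low mean (adjusted p = 0.496), a difference that was called when the third control, the third low array and the second high array were left out together (-1.42, adjusted p = 0.0402, with 1 high array assumed to vary like the other groups). In high-dose cells CTSF and CTSZ lay below every control, by 0.50 and 0.46 without passing the test, and CTSA, CTSB, CTSD, CTSH, CTSK, CTSS, LGMN and TPP1 had differences from control of -0.04 to 0.31, of which 6 were negative without the third control.

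Among the glycosidases, which remove sugars from glycoproteins, glycolipids and glycosaminoglycans, NEU1 rose. NEU1 cleaves terminal sialic acid. It read 7.30, 7.32 and 6.86 on the low arrays, against 6.09, 6.09 and 5.35 on the controls. Each low array was above each control. NEU1 averaged 7.16 ± 0.26 in low-dose and 5.84 ± 0.42 in control cells (SD, n = 3 each), a rise of 1.32 ± 0.22 or 2.49-fold with a limma adjusted p of 0.00909. This was the largest low-dose change among the 41 genes. Leaving out the second low array ended the call (adjusted p = 0.0522), and 18 of 19 alternatives kept it. Without the third control the rise was 1.07 (adjusted p = 0.00819). NEU1 has 8 rows on the array, whose changes lay between 1.26 and 1.32. Most of these rows hold identical values, so they are not 8 separate readings. The high arrays read 6.87 and 6.73, above every control, a difference of 0.96 ± 0.25 (1.94-fold) with an adjusted p of 0.115. This difference passed when array medians were subtracted (1.05, adjusted p = 0.0400) but not without the third control (0.71, adjusted p = 0.0688). High and low differed by -0.36 (95% interval -0.90 to 0.18).

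The beta-mannosidase MANBA read 5.58, 5.22 and 5.24 on the low arrays, against 4.56, 4.62 and 4.83 on the controls. The groups did not overlap, and the difference of 0.68 ± 0.17 had an adjusted p of 0.0589, which passed the threshold under 7 of 19 alternatives, among them leaving out the third control. On the high arrays it read 5.25 and 4.96, a difference of 0.43 ± 0.19 (adjusted p = 0.320). NAGLU and GUSB, which act on heparan sulfate and other glycosaminoglycans, lay at the other end. NAGLU read 3.28 and 3.72 on the high arrays, against 4.32, 4.44 and 4.20 on the controls. Both high arrays were below every control and below every low array (4.33, 4.49 and 3.995). NAGLU differed by -0.82 ± 0.20 from the control mean (adjusted p = 0.107) and by -0.77 ± 0.20 from the low mean (adjusted p = 0.357). Without the third control the difference from control was called (adjusted p = 0.0443). GUSB read 5.68 and 5.40 on the high arrays and 6.17, 5.96 and 5.55 on the low arrays, against 6.37, 6.41 and 6.04 on the controls, with differences from control of -0.73 ± 0.22 in high-dose cells (adjusted p = 0.163) and -0.38 ± 0.19 in low-dose cells (adjusted p = 0.421). The fucosidase FUCA1 also lay below every control on both high arrays (-0.47 ± 0.19, adjusted p = 0.290) while its low arrays overlapped them (0.02, and -0.13 without the third control). The remaining glycosidases, GLA, GAA, HEXA and MAN2B1, had differences of 0.01 to 0.44 in low-dose and -0.29 to 0.05 in high-dose cells, none of them called. Leaving out the third control gave GLA, GAA, HEXA and MAN2B1 low-dose differences of 0.08, 0.13, 0.17 and -0.19, and high-dose differences of -0.07, -0.56, -0.24 and -0.49.

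No sulfatase was called. SGSH, the sulfamidase of heparan sulfate, read 5.15, 5.55 and 4.64 on the low arrays, against 4.87, 5.05 and 4.21 on the controls. The groups overlapped, with a difference of 0.40 ± 0.26 (adjusted p = 0.572), or 0.15 without the third control. The high arrays read 4.61 and 4.31, a difference of -0.25 ± 0.30, or -0.50 without the third control. ARSA, which removes sulfate from sulfatide, read 2.38, 2.22 and 2.66 on the low arrays, against 2.11, 2.10 and 1.96 on the controls. It stood above every control in low-dose cells (0.36 ± 0.20, adjusted p = 0.466), and one high array of 2.10 and another of 1.41 gave a difference from control of -0.30 ± 0.22. IDS, which acts on dermatan and heparan sulfate, and ARSB differed by 0.20 and -0.03 in low-dose cells and by -0.01 and -0.14 in high-dose cells, and ARSB by -0.21 and -0.33 without the third control.

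No lipid hydrolase or activator was called either. PSAP, the precursor of the saposins that present sphingolipids to their hydrolases, read 9.61, 9.62 and 9.41 on the low arrays, against 9.16, 9.15 and 8.78 on the controls. The low arrays lay above the controls, and the difference of 0.51 ± 0.17 had an adjusted p of 0.158. Its high arrays, at 9.47 and 9.19, also lay above them (0.30 ± 0.19, adjusted p = 0.495, and 0.17 without the third control). SMPD1, the acid sphingomyelinase, read 5.36 and 5.29 on the high arrays, against 6.19, 6.09 and 5.44 on the controls. Both high arrays were lower than every control and than the low arrays of 6.09, 6.21 and 5.73, with differences of -0.58 ± 0.24 from control (adjusted p = 0.296) and -0.68 ± 0.24 from low (adjusted p = 0.482). Without the third control, which lay closest to the high arrays, SMPD1 was called lower in high-dose cells (-0.81, adjusted p = 0.0412). The acid ceramidase gene ASAH1 differed by 0.25 in low-dose and 0.21 in high-dose cells, above every control in both. The ganglioside activator GM2A differed by 0.30 and -0.09, and the acid lipase LIPA, whose group means lay below 2, by -0.04 and -0.22. These were 0.15 and -0.24 for GM2A and 0.08 and -0.09 for LIPA without the third control.

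All 6 membrane proteins had positive differences in low-dose cells, and none was called. CTNS, the exporter of cystine from the lysosome, read 5.85, 5.73 and 5.27 on the low arrays, against 4.82, 5.01 and 4.06 on the controls. The groups did not overlap. The difference of 0.98 ± 0.26 had an adjusted p of 0.0716, and it was called under 7 of 19 alternatives. Without the third control this difference was 0.70 (adjusted p = 0.121). The high arrays read 5.58 and 5.15, above every control, with a difference of 0.73 ± 0.29 (adjusted p = 0.274), or 0.44 without the third control. The structural glycoproteins LAMP1 and LAMP2 differed by 0.33 ± 0.20 and 0.15 ± 0.17 in low-dose cells and by -0.04 and 0.07 in high-dose cells. The tetraspanin CD63, above every control in both treated groups, differed by 0.25 and 0.18. SCARB2, which carries beta-glucocerebrosidase to the lysosome, differed by 0.22 and 0.04, and the calcium channel MCOLN1 by 0.07 and 0.09. With the third control left out, LAMP1 differed by 0.13 in low-dose and -0.24 in high-dose cells, SCARB2 by 0.40 and 0.22, MCOLN1 by 0.04 and 0.07, and CD63 by 0.17 and 0.10.

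Of the 4 V-ATPase subunits none was called. ATP6V0D1, of the membrane sector, read 6.46, 6.61 and 5.82 on the low arrays, against 6.16, 6.19 and 5.35 on the controls, with overlapping groups and a difference of 0.40 ± 0.26 (adjusted p = 0.571), or 0.12 without the third control. On the high arrays it read 6.19 and 6.01, a difference of 0.20 ± 0.29, or -0.07 without the third control. ATP6V1C1, of the catalytic sector, read 8.50 and 8.30 on the high arrays and 8.29, 8.18 and 7.95 on the low arrays, against 7.66, 7.43 and 8.19 on the controls. Here the third control was the highest of its group. The differences were 0.63 ± 0.23 in high-dose cells, where both arrays exceeded every control (adjusted p = 0.236), and 0.38 ± 0.20 in low-dose cells (adjusted p = 0.459), and without the third control they were 0.85 in high-dose cells, which was called (adjusted p = 0.0310), and 0.59 in low-dose cells. ATP6V1H and ATP6V1A differed by 0.07 and -0.04 in low-dose cells and by 0.10 and -0.31 in high-dose cells, and ATP6V1A by -0.06 in low-dose cells without the third control.

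**Figure D3:**
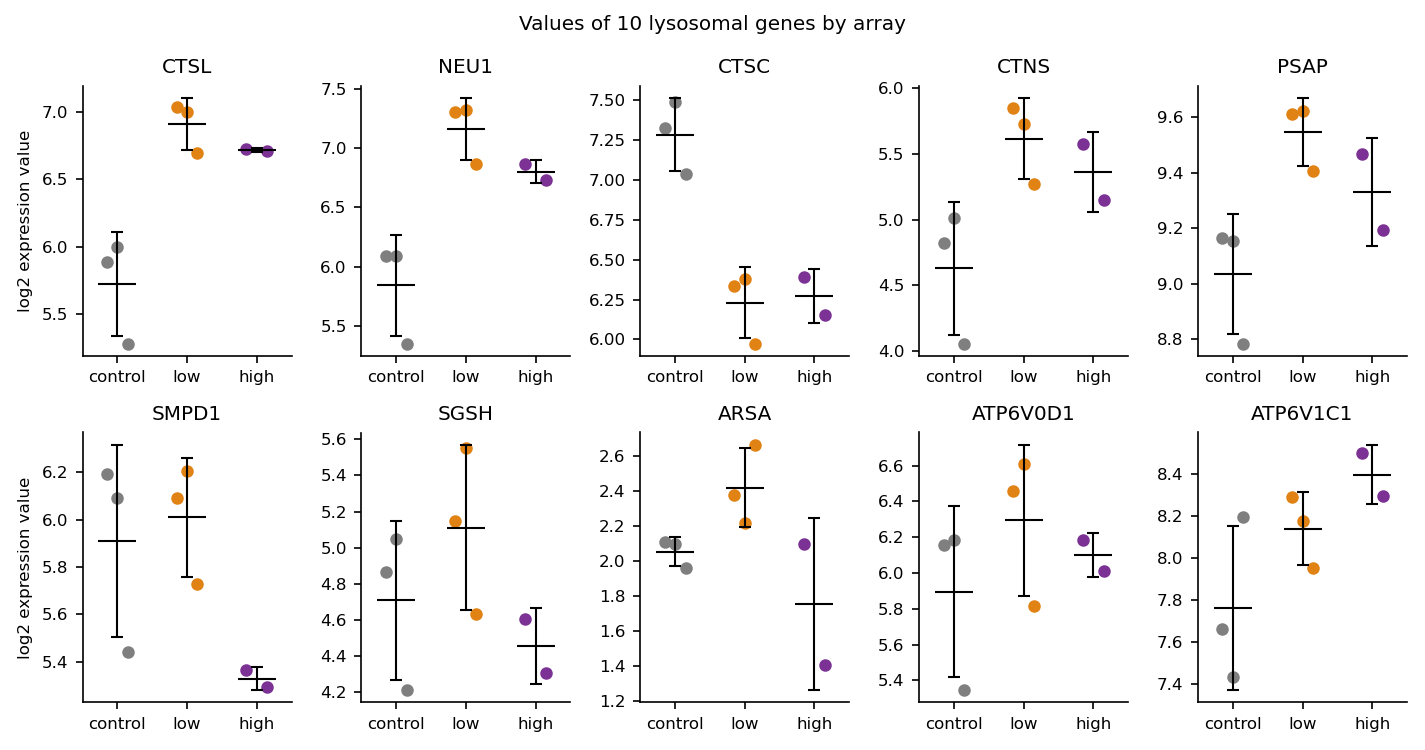
Log2 value on each array (points) and group mean with SD (line and bars) for 10 lysosomal genes, 1 panel each, with control, low and high groups on the horizontal axis. CTSL and NEU1 stood above the controls and CTSC below them on every treated array, and the groups overlapped for SGSH and ATP6V0D1.

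Set side by side as a description without a test, the class medians ranged from 0.19 to 0.44 in low-dose cells and from -0.24 to 0.15 in high-dose cells. The low-dose medians were 0.44 for proteases, 0.19 for glycosidases, 0.28 for sulfatases, 0.25 for lipid hydrolases and activators, 0.23 for membrane proteins and 0.22 for V-ATPase subunits, each above the -0.04 of all genes. Without the third control they were 0.17, 0.08, 0.17, 0.15, 0.16 and 0.10 in the same order. In high-dose cells, too, that array mattered: without it the protease and glycosidase medians were -0.16 and -0.49. With all arrays the medians of glycosidases (-0.24) and sulfatases (-0.20) lay below that of all genes (-0.12), lipid hydrolases and activators stood at -0.09, and proteases (0.08), membrane proteins (0.08) and V-ATPase subunits (0.15) lay above. Genes at or above the median level had a median of -0.22, with the glycosidases close to it and the sulfatases above it. The order in high-dose cells rested on few arrays: the membrane protein median was -0.14 without the first high array and 0.27 without the second. In high against low, all 9 glycosidases, all 4 sulfatases and all 5 lipid genes had negative differences, with medians of -0.36, -0.43 and -0.21, and proteases had a median of -0.34 with 12 of 13 negative. Membrane proteins and V-ATPase subunits had medians of -0.13 and -0.08. In that comparison 61.6% of all genes and 68.0% of genes at or above the median level were negative, with medians of -0.07 and -0.14.

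**Figure D4:**
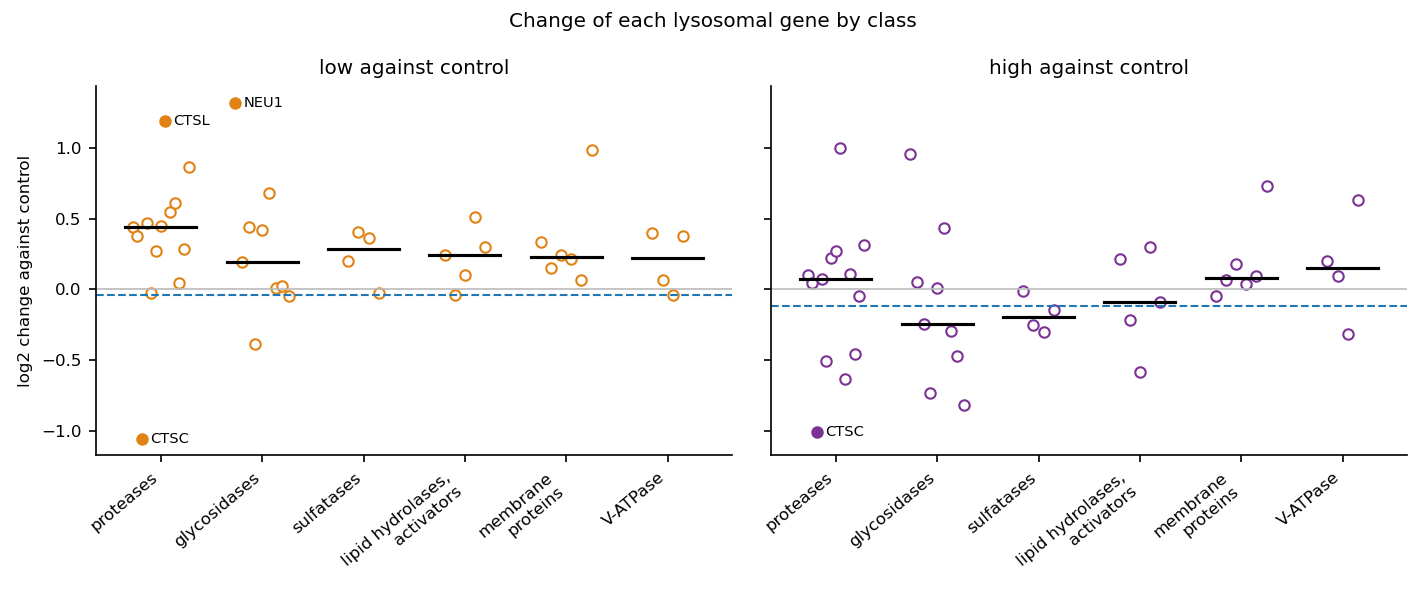
Log2 change against control of each lysosomal gene (points) by class (horizontal axis), in low-dose and high-dose cells, with the class medians as black lines, the median of all genes as a dashed line and filled points for called genes. The protease CTSL and the glycosidase NEU1 were the called rises in low-dose cells, and CTSC was the called fall in both panels.

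The calls depended on which arrays and settings entered. Same-numbered low and control arrays deviated together across genes (r = 0.10, 0.15 and 0.20), mostly as the third arrays against the others. The first control gave 0.12 with the second low array, above its 0.10 with the first. With the replicate number as a block 6 members were called higher in low-dose cells (CTNS, CTSL, CTSS, MANBA, NEU1 and TPP1) and 1 lower (CTSC), against 2.18% and 2.61% of all genes. A block over the low and control arrays alone called 3 higher (CTNS, CTSL and NEU1) and CTSC lower, against 1.32% and 1.40% of all genes. With the third control, the third low array and the second high array left out together, ATP6V1C1, CTNS, CTSL, MANBA, NEU1 and TPP1 were called higher and CTSC lower in low-dose cells, against 3.06% and 2.72% of all genes. In the same setting ATP6V1C1, CTSL and NEU1 were called higher and CTSC, CTSO, GUSB, NAGLU and SMPD1 lower in high-dose cells, against 2.54% and 4.53% of all genes, with 1 high array assumed to vary like the other groups.

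Around these members, 117 other genes of the same pathway were measured in 6 lists, chosen by name. In low-dose cells 8 of the 117 were called higher (6.84%, against 1.19% of all genes) and 1 lower (0.855%, against 1.81%). In high-dose cells 4 were called higher (3.42%, against 0.425% of all genes) and 0 lower (against 0.389%). Of genes at or above the median level, 2.30% were called higher and 3.47% lower in low-dose cells, and 0.814% and 0.733% in high-dose cells. The calls fell in 3 lists: transporters and other membrane proteins (3 higher of 29 in low-dose, 1 in high-dose cells), other V-ATPase subunits (2 of 18 and 1) and transcription factors with nutrient sensing genes (3 higher and 1 lower of 19 in low-dose cells, 2 higher in high-dose cells). None of 20 other hydrolases and cofactors, 19 genes of mannose 6-phosphate tagging and sorting, and 12 cystatins and serpins that inhibit cathepsins was called in either comparison with limma. At an unadjusted p under 0.05 the low-dose counts in these lists were 1 higher among the hydrolases, 1 higher and 1 lower among the sorting genes, and 1 lower among the inhibitors. The high-dose counts were 1 lower among the hydrolases, 2 lower among the sorting genes and 1 lower among the inhibitors. Over all genes, 5.38% were higher and 8.77% lower at that threshold in low-dose cells, and 3.03% and 11.4% in high-dose cells.

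NPC1, the membrane protein that exports cholesterol from the lysosome, read 8.39, 8.45 and 8.02 on the low arrays, against 6.84, 6.82 and 6.02 on the controls. The high arrays read 8.42 and 8.11, so every treated array lay above every control. NPC1 rose by 1.73 ± 0.23 in low-dose cells (3.31-fold, limma adjusted p = 0.00338) and by 1.71 ± 0.26 in high-dose cells (adjusted p = 0.0164). The second call was lost when either high array was left out.

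RRAGC, which encodes the GTPase that helps recruit mTORC1 to the lysosome, read 7.52, 7.20 and 7.07 on the low arrays, against 5.34, 5.73 and 5.66 on the controls. It rose by 1.69 ± 0.18 (adjusted p = 0.00128) in low-dose cells and by 1.69 ± 0.20 (adjusted p = 0.00492) in high-dose cells, where the arrays read 7.42 and 7.11 and the call was lost without the first of them. FLCN and FNIP1 encode folliculin and its partner, which act together on the Rag GTPases. FNIP1 rose by 1.35 ± 0.17 (adjusted p = 0.00255) in low-dose and 1.21 ± 0.19 (adjusted p = 0.0175) in high-dose cells, the high-dose call being lost without the first or second control or either high array. FLCN rose by 1.47 ± 0.22 (adjusted p = 0.00537) in low-dose cells, and its high arrays of 5.11 and 4.44, against controls of 4.11, 4.12 and 3.66, gave 0.81 ± 0.24 (adjusted p = 0.168). The V-ATPase isoform gene ATP6V0D2 rose by 1.30 ± 0.19 (adjusted p = 0.00509) in low-dose and 1.21 ± 0.21 (adjusted p = 0.0310) in high-dose cells, the high-dose call being lost without the first or second control, the second low array or either high array. MCOLN3, a cation channel related to MCOLN1, rose by 1.09 ± 0.17 in low-dose cells (adjusted p = 0.00679), and its difference of 0.95 ± 0.19 in high-dose cells missed the threshold by less than the third digit of the adjusted p.

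The low-dose call of 3 further genes, named after their values were seen, was lost in 5 alternatives each: for all 3 without the first or second control or the first or second low array, and further without the third control for ATP6V1B2, without the third low array for MITF and with the block over low and control arrays alone for SLC17A5. They were SLC17A5, the exporter of the sialic acid that NEU1 releases (0.84 ± 0.18, adjusted p = 0.0271), the V-ATPase subunit ATP6V1B2 (0.81 ± 0.18, adjusted p = 0.0317), and MITF (-0.69 ± 0.15, adjusted p = 0.0288). TFEB and TFE3, named for their role in lysosomal gene control, had low-dose differences of 0.14 ± 0.24 and 0.40 ± 0.22 and high-dose differences of -0.24 ± 0.27 and -0.26 ± 0.25, none of them called.

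**Figure D5:**
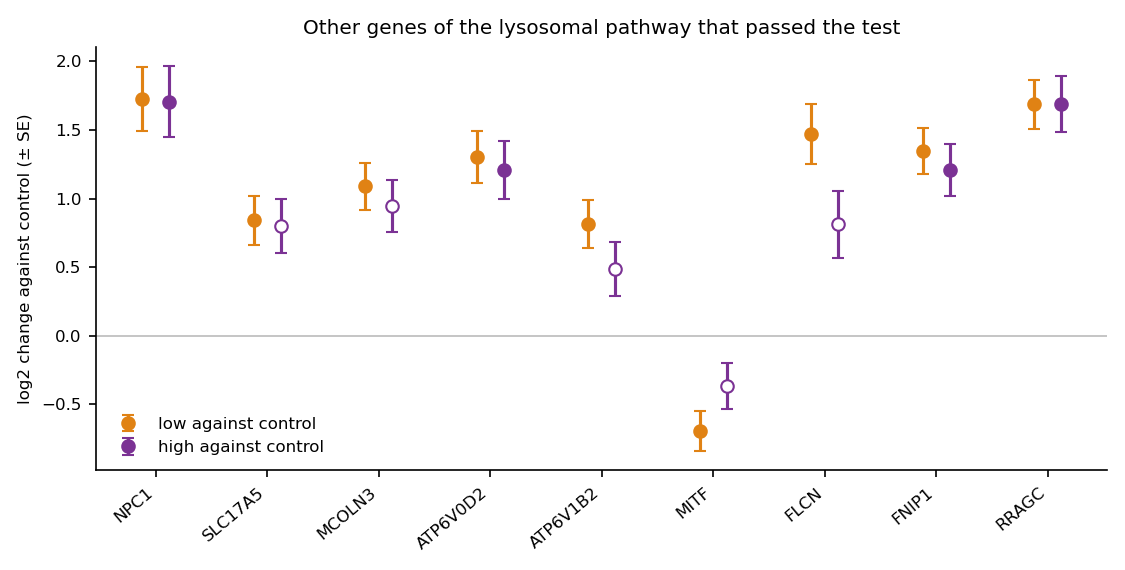
Log2 change against control with its standard error for the other lysosomal pathway genes called in low-dose or high-dose cells (horizontal axis), with filled points for called changes. NPC1 and RRAGC had the largest changes in both groups, and MITF was the 1 gene called lower.

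Promoter sequence was read for the members that RefSeq's table holds, 25 of the 41, as 250 bases before to 50 bases after the annotated start (GRCh38.p14). The E-box CACGTG, searched on both strands, was in 9 of the 25 (36.0%), against 7.26% of all 35116 promoters in the table and 8.6% of those of the genes tested here. The longer palindrome TCACGTGA, the core of the CLEAR element, every match of which also holds CACGTG, was in 5 of the 25 (20.0%), against 0.98% and 1.4%, with 8 matches in all since GAA, LAMP1 and MCOLN1 hold 2 each. Of the called members, NEU1 has a match to the E-box, and CTSL and CTSC have none to either in this window. The NEU1 promoter is shown because NEU1 is the called member with a match, the 250 bases before its start on the minus strand at chr6:31862822-31863071, with the E-box in capitals.
NEU1: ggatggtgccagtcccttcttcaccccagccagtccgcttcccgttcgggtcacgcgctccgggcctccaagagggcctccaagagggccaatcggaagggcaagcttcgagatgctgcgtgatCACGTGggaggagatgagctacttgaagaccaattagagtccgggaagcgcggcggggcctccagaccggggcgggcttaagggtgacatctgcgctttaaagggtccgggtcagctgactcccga

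The most upstream match to the longer palindrome in each of the 5 genes is shown to set beside the gene's change, in a window of 40 bases on the strand of its gene with the palindrome in capitals. CTSA lies at chr20:45891293-45891332 (plus strand), GAA at chr17:80101488-80101527 (plus), LAMP1 at chr13:113297194-113297233 (plus), MCOLN1 at chr19:7522566-7522605 (plus) and ATP6V0D1 at chr16:67481194-67481233 (minus).
CTSA: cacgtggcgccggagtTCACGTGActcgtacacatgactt
GAA: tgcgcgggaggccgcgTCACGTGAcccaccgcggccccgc
LAMP1: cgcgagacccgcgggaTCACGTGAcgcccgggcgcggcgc
MCOLN1: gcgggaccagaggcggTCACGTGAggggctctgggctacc
ATP6V0D1: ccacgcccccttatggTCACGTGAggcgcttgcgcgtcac

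None of these 5 genes was called in any comparison. Their low-dose differences were 0.44 for CTSA, 0.44 for GAA, 0.33 for LAMP1, 0.07 for MCOLN1 and 0.40 for ATP6V0D1, and without the third control 0.21, 0.13, 0.13, 0.04 and 0.12. The 9 members with an E-box (CTSA, CTSD, CTSF, NEU1, GAA, LAMP1, CD63, MCOLN1 and ATP6V0D1) had a median low-dose difference of 0.40, within a range of -0.02 to 1.32, and the 16 without one had a median of 0.15, within a range of -1.05 to 1.19. These medians were 0.13 and 0.08 without the third control. In high-dose cells they were 0.09 and -0.12, and without the third control -0.14 and -0.20. The ranges overlap, no test was made, and a match describes the letters of the window, not binding.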

How the data were processed

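Per the labels, total RNA of each of 8 samples was hybridised to its own Affymetrix array (Human Gene 2.1 ST). The authors deposited log2 values for 53617 rows, made with the Transcriptome Analysis Console, per the submitters' processing notes. For version, summarization and normalization nothing is stated in the sources used here. These values entered unchanged. Rows were named through the platform annotation. Of these, 23558 carried 1 symbol, and where a gene had more than 1 (618 genes) its brightest row on average was kept, which left 22109 genes.

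A group-means model of the 8 arrays was fitted in limma (version 3.58.1, R version 4.3.3; lmFit, contrasts, eBayes), giving 5 residual and 6.0 prior degrees of freedom, and the 3 comparisons were adjusted over all genes by Benjamini-Hochberg. Both treated groups share the 3 controls. The code was tested on simulated data. The number of arrays limits the precision, and the table holds no measure of background.

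Members, lists, classes and tests were chosen with earlier results of these data known, so no p is given for a list. All members are named. Values on every array are given for members called in any comparison and for those with the largest change of their class in low-dose or high-dose cells, with further members where arrays are discussed. From the other lists, called genes are named, up to 6 per comparison by size of change.

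Whether replicate numbers pair the arrays was checked from the data. Same-numbered low and control arrays deviated together from their group means (r = 0.10, 0.15 and 0.20 across genes, which are not independent replicates), and this was taken as pairing, although the first control and the second low array gave 0.12 and the pattern is mostly that of the third arrays against the others. For the high arrays the values were 0.09 and -0.05 with control and 0.21 and -0.18 with low, so those numbers do not pair. Alternatives were quantile normalization, subtraction of array medians, a filter on dim genes, the mean of all rows of a gene, an intensity trend, robust hyperparameters, array weights, a fit of only the compared groups, a replicate block, leaving out each array in turn, and leaving out 3 arrays together.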

Additional observations from a re-analysis of the deposited data

How the results depend on the processing

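The count of members called lower in low against control was 1, CTSC, under 19 of 19 alternatives. The count called higher, 2 as reported, was 5 with quantile normalization, 4 with array medians subtracted, 4 with a filter on dim genes, 7 with array weights, 6 with the replicate block, 6 without the third control, the third low array and the second high array together, and 0 to 3 when 1 array was left out, the 0 coming without the second low array and the 3 without the third control. In high against control, 0 members were called higher as reported, against 2 with quantile normalization, 2 with array medians subtracted, 1 with the filter, 3 with array weights, 2 with the replicate block, 3 without the 3 arrays and 0 to 2 with 1 array left out. The count called lower there, 1 as reported, was 0 with an intensity trend and in a fit of only the 2 groups, 4 with array weights, 5 with the replicate block, 5 without the 3 arrays and 0 to 4 with 1 array left out. In high against low the count called lower, 0 as reported, was 1 with the replicate block (CTSO) and 2 without the 3 arrays (CTSO and NAGLU). The shares of all genes called moved too: in low against control 1.19% were called higher as reported, against 2.77% with quantile normalization, 1.70% with array medians subtracted, 3.13% with the filter, 4.35% with array weights, 2.18% with the block and 3.06% without the 3 arrays. In high against control they were 0.425% higher and 0.389% lower as reported, against 1.06% and 3.48% with array weights and 0.891% and 4.66% with the block. The cause of these moves was not tested. Whether replicate numbers pair the high arrays could not be decided, so block counts in the high-dose comparisons do not rest on a pairing seen in the data. No called value changed sign. The replicate block fitted on the low and control arrays alone, added after seeing the data, called 3 higher and 1 lower.

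The members' median moved by less than the spread between replicates under every alternative run. That spread includes the third control and the third low array, which stood below their groups. A fall of the low against control median from 0.28 to 0.14 lay within it, so this yardstick is a loose one. With 1 array left out the members' median was 0.14 to 0.38 in low against control, -0.15 to 0.14 in high against control and -0.43 to -0.19 in high against low. The sign in high against control therefore depended on the arrays used. With quantile normalization the high against control median was 0.24, against -0.02 for all genes. Quantile normalization and the subtraction of array medians shift all genes, so directions of small high-dose differences are relative to the deposited scaling, under which the median of all genes was -0.12. No sensitivity to depth could be examined, because the deposited values hold no counts and no background signal. A dim gene such as LIPA or ARSA therefore cannot be distinguished from one that is not expressed. The called genes ATP6V0D2, MCOLN3 and MITF were also dim, with control means of 2.46, 2.86 and 3.08. The medians over all genes on the control arrays were 2.83, 2.83 and 2.72.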
